A study of Mus musculus with 121 samples.

Results

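Mouse fibroblasts that had been cycled through LH medium were compared with fibroblasts kept in HH medium at the fifth collection of a 24 h time course, 16 h after the first. The members were the 7 libraries of that collection whose sample titles begin with LH (4 libraries) or HH (3 libraries), out of 62 libraries in the series, and the sequencing runs of each library were summed (2 runs for 6 of the libraries and 1 for HH replicate 1). Both groups were the same line of fibroblasts from a Per2::LUC knockin mouse (genotype PER2::LUC sv, passage P25), in which luciferase is fused to the clock protein PER2. LH cells received 3 cycles of 12 h in medium low in glucose and insulin followed by 12 h in medium high in both, and HH cells received the high medium at every 12 h change, so that the last 12 h of both regimens were in high medium. A free-running stage without further changes of medium came before the 6 collections, which were 4 h apart. RNA was sequenced from the 3′ ends of transcripts (3′DGE), and values are given as CPM, the counts of a gene scaled to the total of its library. A single cell line from 1 genotype was used in all groups. The paper states that the sample numbers in its legends are biological replicates unless it says otherwise. Nothing in the labels says whether the replicates were separate cultures, so the P-values measure the spread between these libraries. The labels give a time of 12 h for all 7 libraries.

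The names of the LH libraries are in conflict between the sources. The read summary that came with the study lists the same library numbers under other names: LH replicates 1 and 2 are named there as HL libraries of collection 4, and LH replicates 3 and 4 as HL libraries of collection 5, HL being the regimen with the high medium first. The 3 HH libraries carry the same name in both. In the 6 second sequencing runs of these libraries, the total count of the deposited file equalled the total in the read summary in 6 of 6 when matched by library number and in 2 of 6 when matched by title, and in 0 of 4 LH runs by title. Which naming is right was not tested here, and LH below always means the title. For some of the genes and lists below, values are also given for the 2 pairs of LH libraries that the read summary separates.

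The circadian clock of mammalian cells is a loop of transcription and repression: CLOCK and BMAL1 (encoded by Arntl) bind E-boxes and drive the Per, Cry, Nr1d1, Nr1d2 and Dbp genes, PER and CRY proteins repress that drive, and the REV-ERB proteins encoded by Nr1d1 and Nr1d2 repress Arntl. Fibroblasts keep this loop in culture, and serum, glucocorticoids, glucose and insulin can reset it. Fibroblasts also make and remodel the collagen matrix, and they divide when growth factors and nutrients allow.

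The 7 libraries held between 3687321 and 11619095 counts. The annotated gene Gm42418, which overlaps ribosomal RNA repeats, took 14.9 to 20.6% of the counts, with the same range in LH and in HH. Runs of one library differed by a chi-square of 1.32 to 1.64 per degree of freedom and libraries of one group by 4.79 to 24.5, so no replicate repeated another. LH replicate 2 stood apart, with correlations of log2(CPM + 1) of 0.942 to 0.960 with the other 6 libraries, while all pairs without it reached at least 0.969 and the HH pairs 0.982 to 0.985. Of the 7774 genes with a mean of at least 10 CPM, LH replicate 2 was the highest or the lowest of the 7 libraries for 46.5%, against 19.01 to 36.9% in the others. All 14 fibroblast markers were expressed, with Col1a2, a chain of type I collagen, at a mean of 15913 CPM. The 14 markers summed to between 30316 and 39194 CPM in LH and between 35128 and 38418 CPM in HH. Of these 14, 13 had a log2 fold change below 0 in LH (median -0.17), 0 of them at an unadjusted P of 0.05 in edgeR. S100a4 was above 0 and was the 1 marker past that threshold (4.84% of all genes). It measured 4391 to 6202 CPM in LH and 3756 to 4140 CPM in HH. Of 48 markers of other cell types, 36 averaged under 1 CPM and 15 were at 0 in every library. Pecam1, Cdh5, Krt5, Krt1, Cd3e, Adgre1, Myod1, Ckm, Adipoq, Tyr and Sox10 were among those under 1 CPM. Some others were detected, among them the leukocyte genes Lyz2 (mean 7.10 CPM), Csf1r (5.94 CPM), Cd14 (4.79 CPM) and Ptprc (1.201 CPM, with 0 to 0.863 CPM in LH and 1.12 to 3.25 CPM in HH), Mitf (10.5 CPM), Fabp4 (8.34 CPM) and Trp63 (2.90 CPM), and their part in the results was not tested. Kdr (mean 191 CPM) and Sox9 (mean 537 CPM) were the only markers on those lists above 20 CPM, with no other marker of endothelium or cartilage beside them averaging above 3 CPM.

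No gene was called between LH and HH. Of 11555 genes with at least 1 CPM in 3 of the 7 libraries, 0 passed an adjusted P of 0.05 in the quasi-likelihood test of edgeR after Benjamini-Hochberg adjustment (0% called), and DESeq2 also called 0. The smallest adjusted P in edgeR was 0.948. Before adjustment, 559 genes passed 0.05 (4.84% of the genes tested, with 2.4% higher and 2.44% lower in LH), and 42 were higher and 40 lower at 0.01 (0.71%, with 0.363% higher and 0.346% lower). DESeq2 placed 260 genes higher and 265 lower at 0.05 (4.54%). Of all genes tested, 52.2% had a log2 fold change above 0. With the library totals in place of TMM factors the split at 0.05 was 161 higher and 383 lower (4.71%), so the balance between directions depended on the scaling, although the median log2 fold change moved only from 0.012 to -0.027.

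The intervals say how large a difference these libraries leave room for. Among the 7774 genes with a mean of at least 10 CPM the median standard error of the log2 fold change was 0.17, and for 7521 of them (96.7%) the 95% interval lay within a 2-fold change in either direction. Among the 3781 genes under 10 CPM the median standard error was 0.47, and the interval lay within 2-fold for 933 (24.7%). For most abundant genes a difference of 2-fold or more thus lay outside the interval, while for most rare transcripts the interval did not exclude it. In the plot of all genes tested, the points with an unadjusted P under 0.01 sit at the rim of the cloud on both sides.

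**Figure D1:**
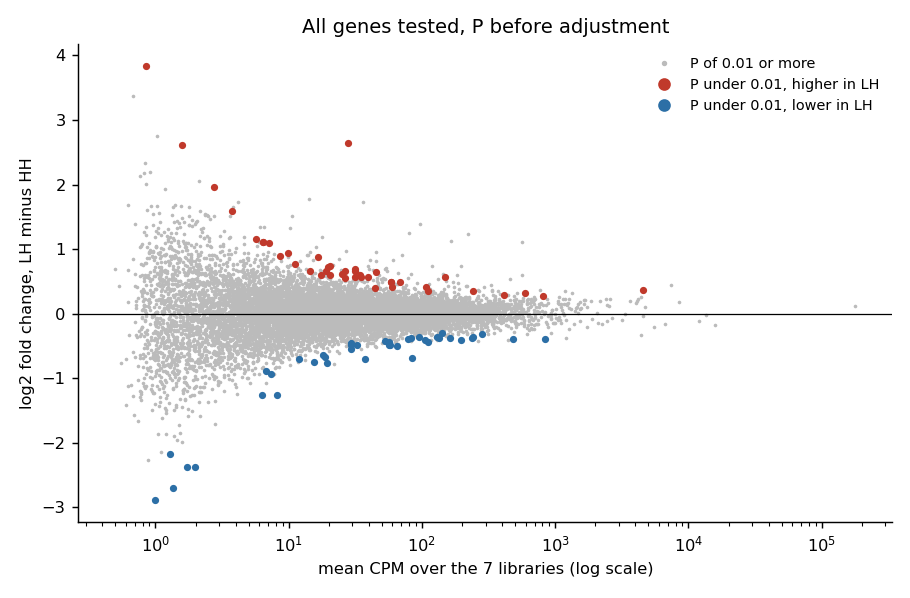
Log2 fold change of LH minus HH (vertical axis) against the mean CPM over the 7 libraries (horizontal axis, log scale) for the 11555 genes tested, each point 1 gene. The 42 genes higher and 40 lower at an unadjusted P under 0.01 are coloured, none passed adjustment, and the cloud narrows as the mean rises.

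The libraries of the 2 groups did not overlap in CPM for 754 genes (6.53%), and the genes with the smallest P were mostly of this kind, since the same contrast chose them. Of the 20 genes with at least 10 CPM and the smallest P in each direction, 19 did not overlap between groups. Their log2 fold changes ran from 0.42 to 0.87 in the 10 that were higher in LH and from -0.77 to -0.36 in the 10 that were lower, with standard errors of 0.094 to 0.21. None passed adjustment. In all 22 alternatives with 2 or more LH libraries none of the 20 changed sign where it was tested. With the single library that the read summary names LH of collection 5, 3 did. Most of the 22 alternatives reused the 7 libraries that chose the genes, so the kept signs are no independent support.

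Among the 10 higher in LH, Chfr, a ubiquitin ligase of a mitotic entry checkpoint (ENSMUSG00000014668, chromosome 5, 110135842 to 110171972 in GRCm38), measured 54.8, 56.4, 52.6 and 46.3 CPM in LH replicates 1 to 4 and 41.8, 27.2 and 35.6 CPM in HH replicates 1 to 3. All LH libraries were above all HH libraries, at means of 52.5 ± 4.43 CPM (SD, n = 4) and 34.9 ± 7.31 CPM (SD, n = 3). The log2 fold change was 0.64 (standard error 0.15). Armcx5, an X-linked gene of the armadillo repeat family, measured 22.7, 21.3, 19.7 and 18.4 CPM in LH and 12.8, 8.26 and 13.5 CPM in HH, a log2 fold change of 0.87 (standard error 0.21). Its locus overlaps Gprasp1 on the same strand, so reads of the pair may be split. Rras2, a RAS-family GTPase, averaged 37.3 ± 6.83 CPM (SD, n = 4) against 23.7 ± 0.543 CPM (SD, n = 3). The other protein-coding genes of this side were Arih2, a ubiquitin ligase, Pop5, a subunit of RNase P, Thoc3, of the THO complex that couples transcription to mRNA export, Hars, the histidyl-tRNA synthetase, Mtch2, of the outer mitochondrial membrane, and Acot9, a mitochondrial acyl-CoA thioesterase.

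The remaining gene on that side, 2900060B14Rik, is an antisense transcript inside Clasp1 on chromosome 1 (118458652 to 118459267). It measured 178, 152, 173 and 183 CPM in LH and 153, 113 and 91.3 CPM in HH, with LH replicate 2 just below HH replicate 1. Its log2 fold change was 0.57 (standard error 0.15), and the mean over the other 5 collections was 0.61 (standard error 0.17), so it was as far from 0 there. Whether the counting used strand is not given in the sources used here, and without strand its reads cannot be told apart from those of Clasp1.

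On the lower side, Rflnb, which encodes the filamin-binding protein refilin B (ENSMUSG00000020846, chromosome 11, 76019194 to 76027782), had the smallest P of all genes (0.000316 before and 0.948 after adjustment in edgeR). It measured 82.6, 46.4, 68.2 and 67.0 CPM in LH and 106, 110 and 109 CPM in HH. All LH libraries were below all HH libraries, at 66.1 ± 14.9 CPM (SD, n = 4) and 109 ± 2.08 CPM (SD, n = 3), and the log2 fold change was -0.69 (standard error 0.15). Postn, encoding periostin, a matrix protein made by activated fibroblasts (chromosome 3, 54361109 to 54391037), measured 826, 619, 735 and 722 CPM in LH and 990, 954 and 991 CPM in HH. Again the groups did not overlap, at 725 ± 84.8 CPM (SD, n = 4) and 978 ± 21.1 CPM (SD, n = 3), a log2 fold change of -0.40 (standard error 0.094). Kif26b, of the kinesin family, measured 14.6 ± 2.78 CPM (SD, n = 4) against 25.7 ± 3.67 CPM (SD, n = 3), and Cep63, of the centrosome, 11.8 ± 1.06 CPM (SD, n = 4) against 20.6 ± 2.38 CPM (SD, n = 3). Trip12, a ubiquitin ligase, Morf4l2, a chromatin protein, Aggf1, Man2a1, a mannosidase of the Golgi, Snrk, a kinase of the SNF1 family, and Bod1l made up the rest.

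**Figure D2:**
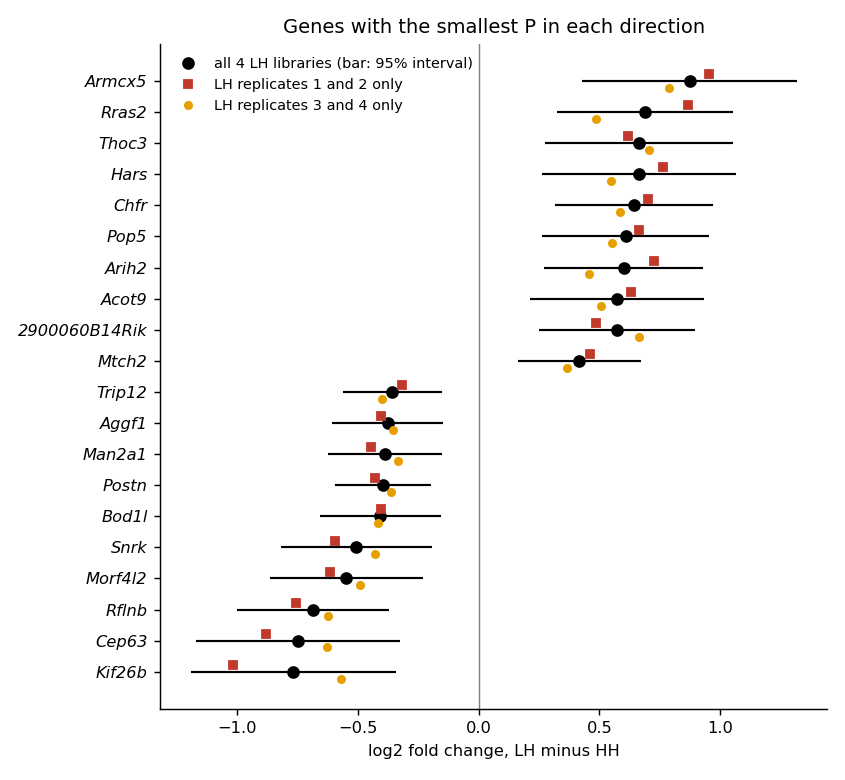
Log2 fold change of LH minus HH (horizontal axis) for the 10 genes with the smallest P in each direction among those of at least 10 CPM, with the 95% interval over all 4 LH libraries, and the value from each pair of LH libraries. The values of the 2 pairs lie on the same side of 0 for all 20 genes, which were chosen from these same libraries. None of the 20 passed adjustment.

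Below 10 CPM the leading genes were Ipo11, an importin, Ccl9, a chemokine, and Wdr90 on the higher side, and Gm16140, Tet1 and Mettl25 on the lower. Tet1, which oxidises 5-methylcytosine in DNA, measured 5.83, 3.07, 5.98 and 5.43 CPM in LH and 8.68, 16.7 and 11.7 CPM in HH, a log2 fold change of -1.27 (standard error 0.32). Ccl9 measured 9.71, 7.43, 7.35 and 8.93 CPM against 2.98, 4.42 and 4.22 CPM. Wdr90, at 1.43 ± 1.05 CPM (SD, n = 4) against 0.0762 ± 0.0717 CPM (SD, n = 3), rests on few reads. Gm16140 is antisense to Meis1, and the same limit on strand holds for it.

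Of the 26 clock genes listed, 23 were expressed enough to be tested, and 0 of them reached an unadjusted P of 0.05 (4.84% of all genes), with 15 above 0 and 8 below and a median log2 fold change of 0.075 (0.012 over all genes). With LH replicates 1 and 2 alone the median was 0.18, with replicates 3 and 4 alone it was -0.036 and without replicate 2 it was 0.047. Some of them differed widely among the LH libraries. Nr1d1 (REV-ERBα, chromosome 11, 98767932 to 98775333, overlapping Thra on the other strand) measured 68.6, 88.4, 17.6 and 15.4 CPM in LH replicates 1 to 4 and 33.6, 25.1 and 30.9 CPM in HH. Replicates 1 and 2 lay above every HH library and replicates 3 and 4 below every one, so that the LH mean of 47.5 ± 36.7 CPM (SD, n = 4) against 29.9 ± 4.37 CPM (SD, n = 3) in HH describes neither pair. The log2 fold change over all 4 was 0.70 (standard error 0.45), with an adjusted P of 0.948 in edgeR.

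Dbp, the PAR bZIP activator that the clock drives through E-boxes (chromosome 7, 45705088 to 45710203), measured 78.5, 45.1, 25.5 and 28.2 CPM in LH and 33.9, 34.9 and 38.0 CPM in HH, in the same arrangement around the HH libraries. Nr1d2 (REV-ERBβ) measured 91.1, 83.4, 63.2 and 54.5 CPM in LH and 68.6, 59.8 and 61.0 CPM in HH. Bhlhe41 (DEC2), a repressor of the loop, measured 24.4, 23.6, 10.8 and 14.4 CPM in LH against 17.9, 13.8 and 16.8 CPM in HH. Cry1, which represses the loop late in the cycle, had the opposite order inside LH, at 13.6, 16.3, 30.4 and 24.97 CPM, with 36.6, 22.1 and 18.5 CPM in HH. Ciart, a low-level repressor, measured 6.04, 1.78, 1.37 and 0.65 CPM in LH and 0.54, 1.14 and 0.95 CPM in HH.

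Per2, the gene that carries the reporter, measured 12.5, 4.20, 5.47 and 4.40 CPM in LH and 5.70, 19.4 and 6.54 CPM in HH, with 1 high library on each side. Its log2 fold change was -0.71 (standard error 0.46), and it was 0.13 without HH replicate 2, -0.40 with LH replicates 1 and 2 alone and -1.08 with replicates 3 and 4 alone. Arntl was low, at 1.89 ± 1.30 CPM (SD, n = 4) in LH and 1.21 ± 0.388 CPM (SD, n = 3) in HH. Hlf, a PAR bZIP factor like Dbp, had the smallest P on the clock list and measured 39.1, 131, 66.7 and 66.5 CPM against 70.2, 38.9 and 46.8 CPM, with the high value in LH replicate 2. In HH, whose names do not conflict, Nr1d1 averaged 157 ± 8.07 CPM (SD, n = 3) at collection 3, 98.3 CPM at collection 4 (2 libraries at 86.7 and 110 CPM), 29.9 ± 4.37 CPM (SD, n = 3) at collection 5 and 10.9 ± 7.46 CPM (SD, n = 4) at collection 6. The HH level thus differed several fold between collection 5 and its neighbours, and LH replicate 2 lay inside the range of HH collection 4, LH replicate 1 between HH collections 4 and 5, and LH replicates 3 and 4 inside the range of HH collection 6 (3.21 to 18.2 CPM). Dbp placed them otherwise, with LH replicate 1 above the 2 libraries of HH collection 4 (53.9 and 60.1 CPM), replicate 2 between HH collections 4 and 5, and replicates 3 and 4 between HH collections 5 and 6 (8.93 to 18.8 CPM at collection 6).

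**Figure D3:**
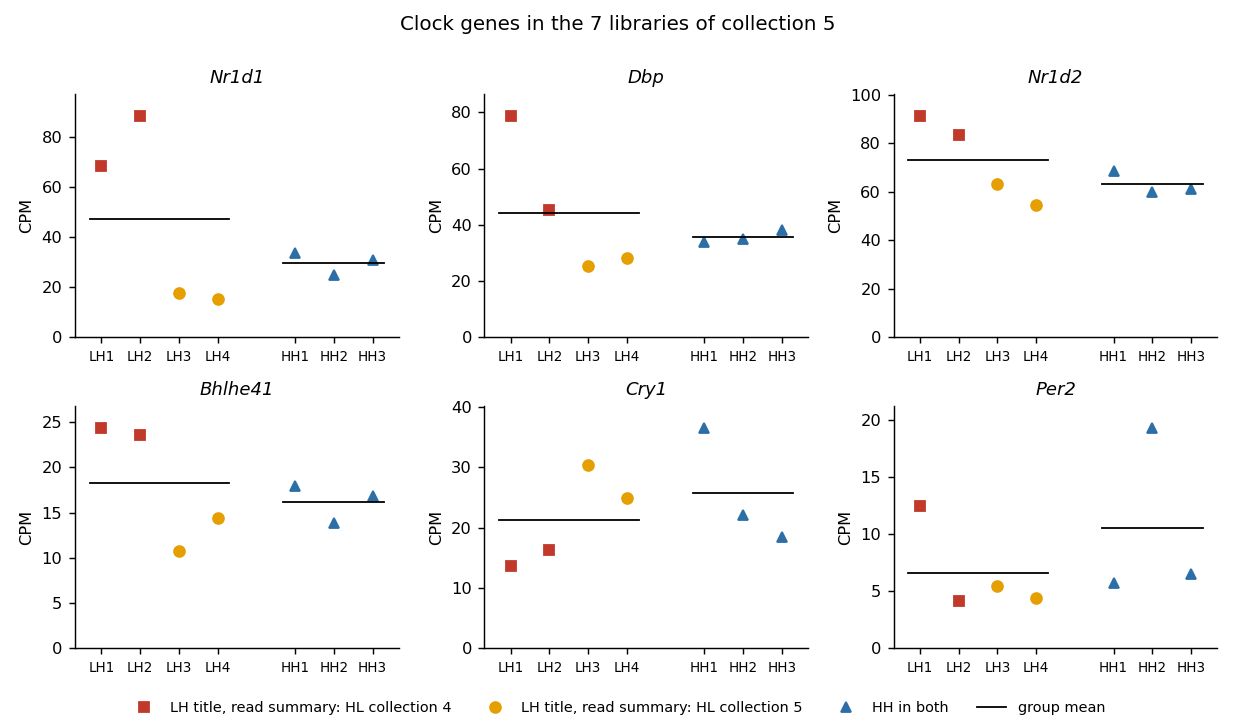
CPM (vertical axis, from 0) of 6 clock genes in each of the 4 LH and 3 HH libraries, with the LH libraries marked by the name that the read summary gives them and horizontal lines at the group means. Nr1d1 and Dbp of LH replicates 1 and 2 lie above all 3 HH libraries and those of replicates 3 and 4 below them.

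The upstream sequences of Ciart, Tef and Nr1d1 are shown because the E-box CACGTG is the element through which CLOCK and BMAL1 act. Ciart and Tef show windows with the motif and Nr1d1 a window without it, and they were chosen after their values were seen. The 250 bases before the annotated start are from RefSeq in GRCm38.p6, read 5′ to 3′ on the strand of the gene, with CACGTG in capitals. Ciart is chr3:95882229-95882478 on the minus strand, Tef, another PAR bZIP factor, is chr15:81811164-81811413 on the plus strand for one of its starts, and Nr1d1 is chr11:98775378-98775627 on the minus strand.
Ciart: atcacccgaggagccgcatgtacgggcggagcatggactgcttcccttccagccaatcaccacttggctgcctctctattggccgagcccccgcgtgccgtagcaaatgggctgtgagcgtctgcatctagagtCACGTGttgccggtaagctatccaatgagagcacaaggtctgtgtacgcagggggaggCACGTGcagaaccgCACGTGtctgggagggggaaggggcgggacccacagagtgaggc
Tef: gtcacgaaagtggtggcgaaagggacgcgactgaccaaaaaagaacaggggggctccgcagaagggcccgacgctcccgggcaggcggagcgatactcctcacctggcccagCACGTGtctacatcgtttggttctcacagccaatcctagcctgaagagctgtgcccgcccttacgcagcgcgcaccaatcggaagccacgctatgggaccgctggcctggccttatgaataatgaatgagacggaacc
Nr1d1: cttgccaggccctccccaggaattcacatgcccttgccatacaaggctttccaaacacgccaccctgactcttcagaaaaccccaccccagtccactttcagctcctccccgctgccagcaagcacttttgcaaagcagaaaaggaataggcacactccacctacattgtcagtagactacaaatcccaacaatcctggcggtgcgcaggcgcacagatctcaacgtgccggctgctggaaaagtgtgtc
The Ciart window holds 3 copies, with first bases 116, 58 and 44 bases before the start, and the Tef window 1 copy, 138 bases before the start. The Nr1d1 and Dbp windows hold none, which says only that these letters are not in these 250 bases. The motif reads the same on both strands and occurs in 6.02% of 32851 windows of the same length. Tef, with its E-box, measured 245.99, 175, 156 and 174 CPM in LH and 185, 169 and 192 CPM in HH, and LH replicate 1 was the only library above the HH range.

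Most genes of the extracellular matrix had values below 0 in LH, and none passed adjustment. The fibroblast markers, which include several matrix genes, had 13 of 14 values below 0 as well, and their part in this result was not tested. Of 37 matrix glycoproteins and proteoglycans tested, 31 were below 0 and 6 above, with a median log2 fold change of -0.15, and 4 were lower and 0 higher at an unadjusted P of 0.05, where the share over all genes was 4.84%. The 4 were Postn, Fbln2, which encodes fibulin 2 of elastic and basement membrane fibres, Fbn1, the fibrillin of microfibrils, and Smoc2, a calcium-binding matrix protein. Fbln2 measured 725, 573, 447 and 472 CPM in LH and 710, 717 and 692 CPM in HH, a log2 fold change of -0.32 (standard error 0.13), with LH replicate 1 above every HH library. Fbn1 measured 84.8, 39.9, 45.3 and 52.4 CPM against 74.9, 68.1 and 83.5 CPM, again with replicate 1 apart from the other 3.

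Of 33 collagens and collagen-processing genes, 19 were below 0 and 14 above (median -0.12), and 5 were lower and 0 higher at the same unadjusted threshold: Col12a1, Col5a2, Col11a1, Col4a1 and the procollagen proteinase Bmp1. Col12a1, a collagen that coats fibrils, measured 264.1, 176, 215 and 182 CPM in LH and 271.5, 257.7 and 301 CPM in HH, a log2 fold change of -0.37 (standard error 0.12). Col4a1, of basement membranes (chromosome 8, 11198423 to 11312826, overlapping Col4a2 on the other strand), measured 175, 88.9, 86.5 and 98.1 CPM in LH and 146, 145 and 164 CPM in HH. For Col12a1, Col5a2, Col11a1 and Col4a1, as for Fbln2 and Fbn1, LH replicate 1 was the highest LH library, while Bmp1 was lowest there, and the summed collagen list was 37162 CPM there, 26491, 28998 and 29073 CPM in LH replicates 2 to 4 and 32872, 33630 and 36124 CPM in HH. Among 16 metalloproteinases and inhibitors, 11 were below 0 (median -0.15), and the inhibitors Timp2 and Timp3 were lower at an unadjusted 0.05 (2.44% of all genes). Timp3 measured 4889, 2511, 4067 and 4226 CPM in LH and 5018, 5141 and 4957 CPM in HH, with the lowest value in LH replicate 2.

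Genes that serum response factor and the actin cytoskeleton control had 21 of 28 members below 0 (median -0.14), and Tagln, Ccn1 and Lima1 were lower at an unadjusted 0.05, where 2.44% of all genes were lower. Lima1, an actin-bundling protein, measured 196, 170, 190 and 171 CPM against 230, 195 and 230 CPM. Of 23 genes of TGF-beta signalling, 17 were below 0 (median -0.087), among them the receptor Tgfbr2 and Inhba, the activin subunit, at an unadjusted 0.05. Inhba measured 56.1, 32.8, 45.6 and 52.7 CPM in LH and 67.5, 60.5 and 58.2 CPM in HH. Without LH replicate 2 the medians were -0.076 for the matrix glycoproteins, -0.050 for the collagens, -0.092 for the metalloproteinases and -0.046 for the actin genes. Each of these moved toward 0 without that library, and the TGF-beta median was -0.083. At an unadjusted 0.05 without it, 5.33% of all genes passed in either direction. Lower there were 2 matrix glycoproteins, 4 collagen genes, 1 metalloproteinase list member and 0 TGF-beta genes, with 0 higher in these lists. Of the actin genes 2 were lower and 2 higher.

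Most genes of ribosomes and of the respiratory chain had values above 0, and none passed adjustment. Of 79 cytosolic ribosomal proteins 70 were above 0, with a median of 0.11, and 12 were higher and 0 lower at an unadjusted 0.05, against 4.84% of all genes. Rplp0, of the ribosomal stalk, measured 897, 794, 890 and 905 CPM in LH and 709, 733 and 771 CPM in HH, without overlap, a log2 fold change of 0.28 (standard error 0.091). The summed list was 53765 to 55650 CPM in LH and 49956 to 53496 CPM in HH, ranges that do not overlap. Of 74 nuclear genes of the respiratory chain 65 were above 0 (median 0.13), with 6 higher and 1 (Sdhd) lower at the same threshold. Ndufc1, of complex I, measured 184, 185, 195 and 186 CPM against 165, 154 and 162 CPM. All 12 mitochondrial DNA genes tested were above 0 (median 0.19), and mt-Nd1 and mt-Co1 reached an unadjusted 0.05. The subunit of cytochrome oxidase mt-Co1 measured 752, 735, 739 and 712 CPM in LH and 654, 656 and 586 CPM in HH. Without LH replicate 2 the medians of these 3 lists were 0.11, 0.11 and 0.19. With library totals in place of TMM factors they were 0.076, 0.094 and 0.15, still above 0. Over the other 5 collections the medians of LH minus HH were -0.024, with 26 of 79 above 0, for the ribosomal proteins, 0.0054 for the respiratory chain and 0.15 for the mitochondrial DNA genes. With LH replicates 1 and 2 alone, 7 of the 12 mitochondrial DNA genes were above 0 and 1 of the 79 ribosomal proteins was higher at an unadjusted 0.05 (6.79% of all genes passed in either direction). With replicates 3 and 4 alone the counts were 11 of 12 and 19 of 79 (7.92% of all genes).

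The mitosis list differed most between the pairs of LH libraries. Over all 4 LH libraries, 39 of 47 genes were above 0, with a median of 0.27, and 4 were higher and 0 lower at an unadjusted 0.05 (4.84% of all genes in either direction): Ndc80, of the outer kinetochore, Ncapd2, a condensin subunit, Plk1, the mitotic kinase, and Cdc25c, the phosphatase that starts mitosis. Ndc80 measured 8.42, 4.53, 3.59 and 4.53 CPM in LH and 1.90, 1.28 and 2.07 CPM in HH, a log2 fold change of 1.60 (standard error 0.47). Ncapd2 (chromosome 6, 125168007 to 125191701) measured 59.3, 45.3, 38.3 and 38.9 CPM in LH and 37.2, 29.3 and 27.9 CPM in HH, a log2 fold change of 0.57 (standard error 0.17). In both genes all LH libraries exceeded all HH libraries. The list as a whole was not arranged so, and its summed level was 1133 and 789 CPM in LH replicates 1 and 2, 570 and 576 CPM in replicates 3 and 4, and 635, 645 and 737 CPM in HH. With replicates 1 and 2 alone the median was 0.76, with 17 genes higher and 0 lower at an unadjusted 0.05 (6.79% of all genes), and with replicates 3 and 4 alone it was -0.23, with 2 higher and 7 lower (7.92% of all genes). Of 46 genes of DNA replication the medians were 0.14 over all LH libraries, 0.078 without replicate 2, 0.29 with replicates 1 and 2 and -0.12 with replicates 3 and 4. Over all LH libraries 1 of the 46 was higher and 1 lower at an unadjusted 0.05 (4.84% of all genes in either direction). The higher one was Pcna, the sliding clamp of replication. It measured 17.9, 21.8, 17.4 and 15.4 CPM in LH and 13.8, 11.5 and 14.0 CPM in HH.

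**Figure D4:**
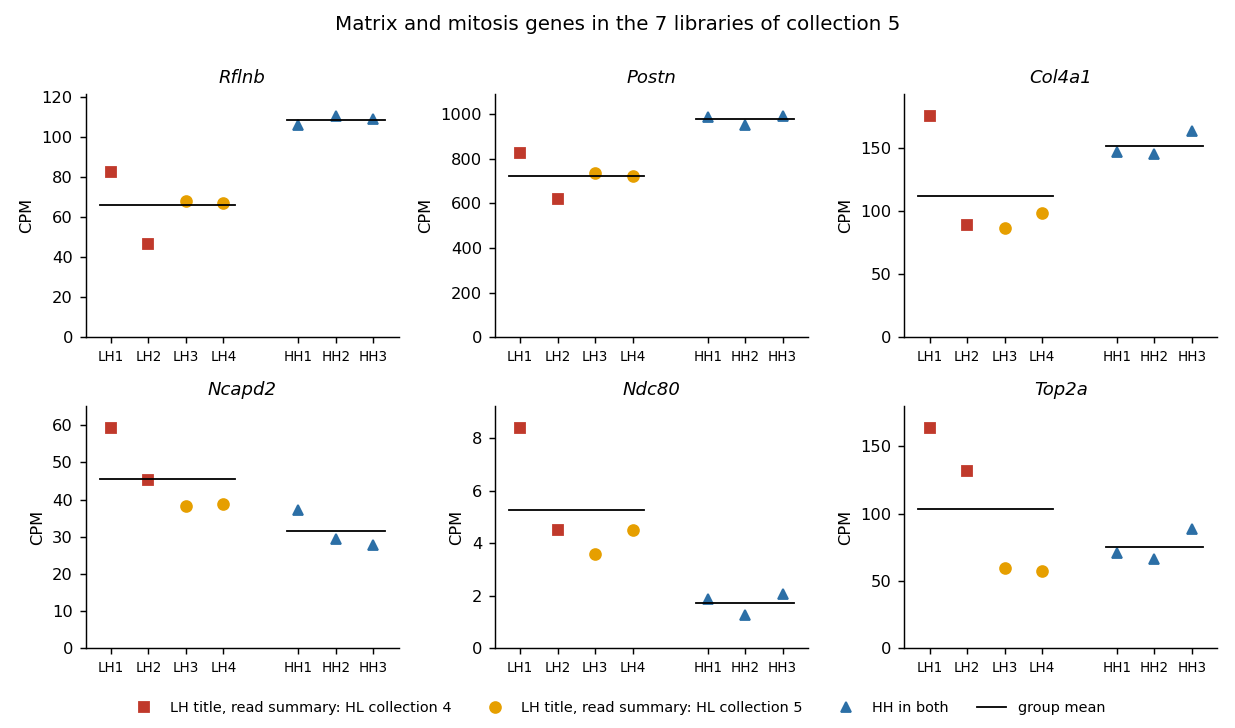
CPM (vertical axis, from 0) of 3 matrix or cytoskeletal genes (Rflnb, Postn and Col4a1) and 3 genes of dividing cells (Ncapd2, Ndc80 and Top2a) in each LH and HH library, with the LH libraries marked by their name in the read summary and lines at the group means. Rflnb and Postn are lower, and Ncapd2 and Ndc80 higher, in every LH library than in every HH library, while Col4a1 and Top2a overlap.

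The ATF4, NF-kB, interferon, heat shock and immediate early lists had medians above 0. LH replicate 2 was the highest of the 7 libraries for 20 of 25 ATF4 genes, 9 of 17 NF-kB genes and 18 of 26 interferon genes. It was the highest for 8 of 17 heat shock genes, but for 4 of 21 immediate early genes. Among the 7774 genes with a mean of at least 10 CPM it was the highest for 20.0%. In lists given below it was the highest for 11 of 18 glycolysis and 16 of 33 lysosomal genes. Of 25 targets of ATF4, the factor that answers amino acid shortage and ER stress, 23 were above 0 (median 0.27) and 5 were higher at an unadjusted 0.05, where 2.4% of all genes were higher (Aars, Chac1, Asns, Shmt2 and Sesn2). Aars, the alanyl-tRNA synthetase, measured 132, 141, 102 and 92.5 CPM in LH and 93.0, 90.2 and 99.9 CPM in HH, and Asns, the asparagine synthetase, 43.6, 57.4, 26.8 and 20.7 CPM against 19.5, 17.7 and 33.4 CPM. The summed list was 3828 CPM in LH replicate 2, 2079, 1863 and 1858 CPM in the other LH libraries and 1977, 1726 and 2113 CPM in HH. Without replicate 2 the median was 0.026, with 2 genes higher and 0 lower at an unadjusted 0.05 (5.33% of all genes in either direction). Of 17 NF-kB regulators and chemokines 15 were above 0 (median 0.39, and 0.27 without LH replicate 2), with Nfkbia, the inhibitor that NF-kB induces, at 297, 339, 318 and 281.9 CPM in LH and 246.5, 265 and 267.7 CPM in HH. Ccl2 measured 2.16, 13.1, 5.98 and 2.46 CPM against 1.90, 1.57 and 2.07 CPM. Of 26 interferon and MHC class I genes 23 were above 0 (median 0.22, and 0.065 without LH replicate 2). With LH replicates 3 and 4 alone the interferon median was 0.22, with 9 genes higher at an unadjusted 0.05 (7.92% of all genes in either direction), and over the other 5 collections it was 0.30. The MHC light chain B2m measured 2506, 2997, 2634 and 2727 CPM against 2521, 2272 and 2399 CPM. Of 17 heat shock chaperones 11 were above 0 (median 0.084, and 0.0027 without LH replicate 2). Hsph1, their member with the smallest P, measured 484 CPM in LH replicate 2 and 150 to 161 CPM in the other LH libraries, beside 142 to 150 CPM in HH. Immediate early genes were split evenly, 11 above and 10 below 0 (median 0.036, and 0.068 without LH replicate 2), with Junb, a subunit of AP-1, at 27.4, 34.8, 33.7 and 24.6 CPM in LH and 21.2, 20.9 and 21.3 CPM in HH.

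LH replicate 2 differed from the other 6 libraries in named genes. Ereg, an EGF-family ligand, measured 147 CPM there and 5.15 to 11.8 CPM elsewhere, Gem, a GTPase, 143 CPM against 14.6 to 25.3 CPM, Nupr1, a stress-induced nuclear protein, 298 CPM against 30.9 to 53.1 CPM, and Ier3, an early response gene, 728 CPM against 120 to 160 CPM. Aldh3a1, an aldehyde dehydrogenase, measured 18.7 CPM there and 91.1 to 121 CPM elsewhere. These genes were chosen after their values were seen. With no filter on low counts edgeR called 46 of 16741 genes (0.275%, with 43 higher and 3 lower). Of the 46, 45 were also tested with the filter, where the smallest adjusted P of any gene was 0.948 in edgeR. In 45 of the 46 LH replicate 2 was the highest or the lowest of the 7 libraries. Without that library the same fit called 3 genes (Rflnb lower, Lrrc17 and 2900060B14Rik higher).

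Among genes that glucose and insulin control none passed adjustment. Txnip, which glucose induces through MondoA, measured 76.2, 29.6, 65.1 and 45.3 CPM in LH and 74.3, 73.1 and 76.2 CPM in HH, a log2 fold change of -0.44 (standard error 0.22) and an interval of -0.90 to 0.017, so neither equality nor a fall was shown. Of 18 genes of glycolysis and MondoA targets 16 were above 0 (median 0.14, and 0.0096 without LH replicate 2), with Aldoa, an aldolase, at 464, 648, 473 and 514 CPM against 451, 431 and 459 CPM. Of 21 genes of insulin signalling and FOXO targets 12 were below 0 (median -0.090, and -0.026 without LH replicate 2), with Sesn3, which FOXO induces, at 243, 185, 225.8 and 217 CPM against 260, 267.8 and 263.02 CPM. Of 30 genes of sterol and fatty acid synthesis 14 were above 0 (median -0.0061, and 0.050 without LH replicate 2), with Elovl6, a fatty acid elongase, at 78.3, 83.4, 74.7 and 77.9 CPM against 110, 91.3 and 94.9 CPM. Of 12 IGF genes 6 were above 0 (median 0.0086, and -0.11 without LH replicate 2), and Igf2r, the receptor that clears IGF2, measured 110, 87.9, 87.0 and 82.4 CPM against 143, 112 and 120 CPM.

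Medians of the other lists lay between -0.10 and 0.16. The median was 0.16 for 18 NRF2 antioxidant genes, with Hmox1, the heme oxygenase, at 101, 75.3, 66.3 and 70.5 CPM in LH and 71.3, 56.6 and 62.3 CPM in HH. Medians were 0.089 for 33 lysosomal genes and 0.072 for 31 proteasome subunits, of which 0 and 3 were higher at an unadjusted 0.05 (2.4% of all genes). They were -0.098 for 13 hypoxia targets, -0.10 for 24 G1 and p53 genes, 0.013 for 13 glucocorticoid-responsive genes, 0.013 for 6 cold-inducible genes and -0.0046 for 20 genes of the unfolded protein response. Without LH replicate 2 the medians were 0.018 for the lysosomal, 0.038 for the proteasome, -0.0010 for the hypoxia, -0.030 for the glucocorticoid-responsive, 0.050 for the cold-inducible and -0.0089 for the unfolded protein response genes. Cdkn2a, the cell cycle inhibitor locus that immortalised lines often alter, measured 694, 740, 590 and 564 CPM in LH and 528, 475 and 590 CPM in HH. No member of any of the 28 lists passed adjustment.

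**Figure D5:**
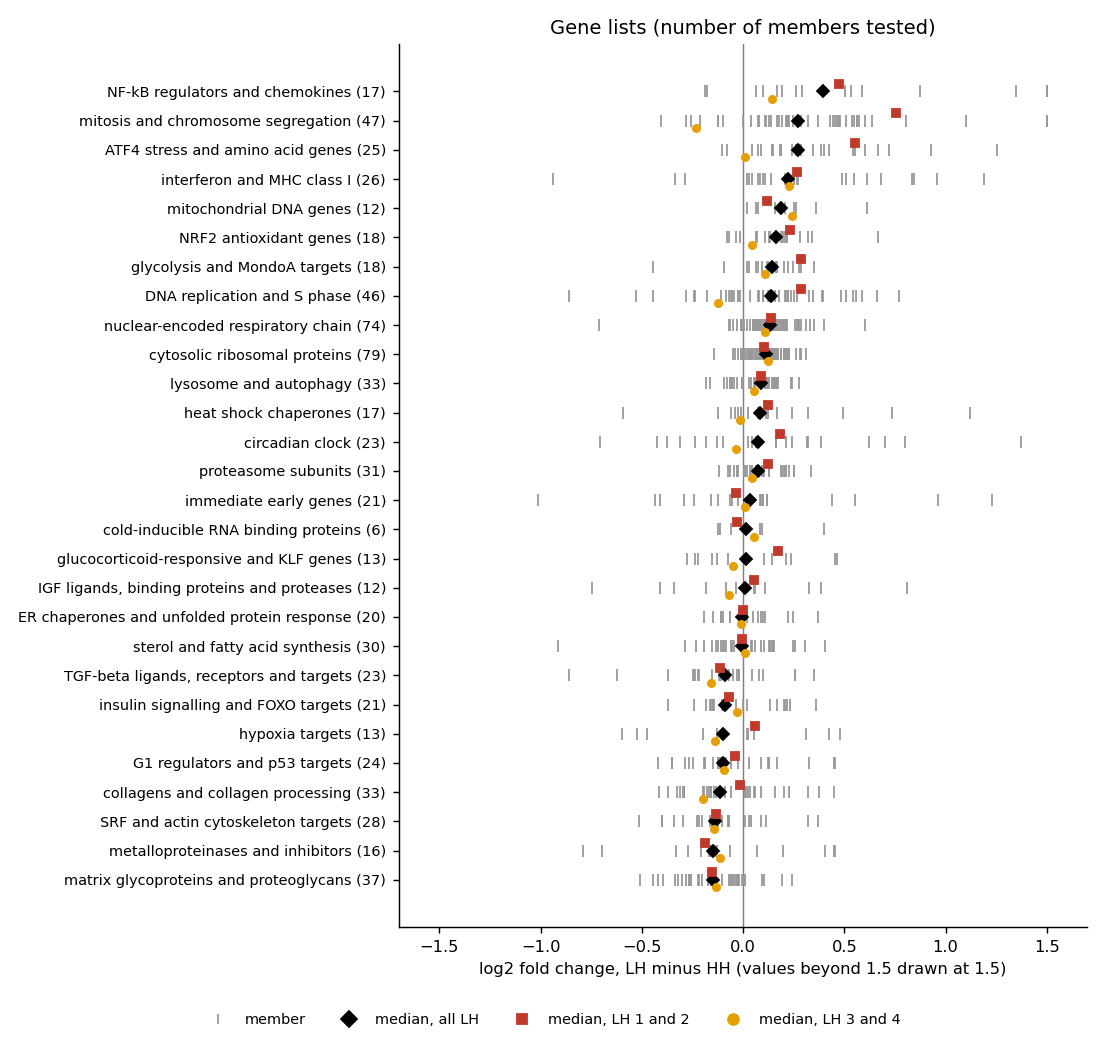
Log2 fold change of LH minus HH (horizontal axis) for the members of the 28 lists (grey ticks), with the median over all LH libraries (diamonds), with LH replicates 1 and 2 alone (squares) and with LH replicates 3 and 4 alone (circles). The squares and circles lie furthest apart for mitosis (0.76 and -0.23) and ATF4 genes (0.55 and 0.0083), and close together for ribosomal proteins (0.10 and 0.12).

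The pairs of LH libraries that the read summary names differently were compared with each other. Between replicates 3 and 4 and replicates 1 and 2, edgeR called 0 of 11555 genes (0%), with 149 higher and 203 lower in replicates 3 and 4 at an unadjusted 0.05 (3.05%), and DESeq2 called 2, Nr1d1 and Top2a, both lower in replicates 3 and 4. In edgeR the log2 difference of Nr1d1 was -2.21 (standard error 0.25, adjusted P = 0.146) and that of Top2a, the topoisomerase of dividing cells, was -1.27 (standard error 0.18, adjusted P = 0.417). Top2a measured 164 and 131 CPM in replicates 1 and 2, 59.8 and 57.6 CPM in replicates 3 and 4, and 70.8, 66.2 and 88.4 CPM in HH. Of the 47 mitosis genes 46 were lower in replicates 3 and 4, 18 of them at an unadjusted 0.05, against 3.05% of all genes in either direction. Of the 23 clock genes 18 were lower there, 5 at that threshold with 1 higher. Of the 25 ATF4 genes all 25 were lower, 8 at that threshold.

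Set against HH with replicates 3 and 4 alone, edgeR called 9 genes (0.0779% of 11555). Lower in this pair were Fbln2 (log2 fold change -0.56, standard error 0.090, adjusted P = 0.00107), Col4a1 (-0.65, standard error 0.12, adjusted P = 0.00365), Rflnb (-0.62), Tpr, of the nuclear pore (-0.53), Myh10, a non-muscle myosin (-0.48), Ahnak (-0.39) and Nid1, the basement membrane linker nidogen 1 (-0.82). Higher were 2900060B14Rik (0.66) and Npy1r, a neuropeptide Y receptor (0.46). Nid1 measured 74.5 and 74.1 CPM in this pair and 90.0, 92.9 and 221 CPM in HH, but 268.2 and 68.0 CPM in LH replicates 1 and 2, so that its 2 high libraries came 1 from each group. Of the 33 collagen genes 14 were lower and 0 higher at an unadjusted 0.05 in this pair, against 7.92% of all genes, while with replicates 1 and 2 alone 2 were higher and 0 lower. A further library that the read summary gives the same name, titled LH of collection 6, was then added. With it 0 genes were called at an adjusted 0.05 and 849 were past an unadjusted 0.05 (7.35%). The 9 genes kept their sign with log2 fold changes further from 0, such as -0.69 for Fbln2, -0.81 for Col4a1, -0.71 for Ahnak and 1.37 for Npy1r. For all 9 the added library lay further from HH than replicates 3 and 4 did. Ahnak measured 424 CPM there, 1013 and 1035 CPM in replicates 3 and 4, and 692 CPM in LH replicate 2. Npy1r measured 1722 CPM there and 1695 CPM in LH replicate 2, but at most 526 CPM in replicates 3 and 4. The larger values thus came with 1 library and are no independent support for the 9 calls. With replicates 1 and 2 alone 0 genes were called, with 785 past an unadjusted 0.05 (6.79%) and a smallest adjusted P of 0.181.

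The difference between LH and HH at collection 5 was also set against its mean over the other 5 collections, which rest on 34 other libraries and on titles for LH. Those 5 collections were not alike. In edgeR, 817 of 11555 genes were higher and 578 lower in LH past adjustment at collection 2. Collection 1 had 16 and 31, and collections 3, 4 and 6 had 0. At collection 2 Top2a ran from 27.7 to 305 CPM among the 3 LH libraries. How far collection 2 set the mean was not tested. For collection 5 against that mean, edgeR called 0 genes (0%). At an unadjusted 0.05, 131 were higher and 72 lower at collection 5 relative to the others (1.76%), and DESeq2 called 0. The 4 with the smallest P were Ncapd2, Serpina3n, Ndc80 and Armcx5. Ncapd2 had a log2 fold change of -0.24 (standard error 0.090) over the other collections against 0.57 at collection 5, and Ndc80 had -0.53 (standard error 0.24) against 1.60. Of the 47 mitosis genes 44 were higher at collection 5 relative to the others, 7 at an unadjusted 0.05, and over the other collections 43 were below 0 with 20 lower at that threshold, where 10.4% of all genes passed in either direction. Of the 20 leading genes at collection 5, 15 had the same sign over the other collections, 6 of the 10 higher and 9 of the 10 lower. Their log2 fold changes there lay between -0.36 and 0.61, and the matching share over all genes was not counted. Over the other collections Rflnb was -0.35 (standard error 0.12, adjusted P = 0.319 in edgeR). Postn was -0.27 (standard error 0.10, adjusted P = 0.359), and Chfr, of the higher side, was -0.0054 (standard error 0.12).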

How the data were processed

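The authors deposited raw counts per gene for each sequencing run (3′DGE, single-end reads; the submitters' processing notes name bcl2fastq, STAR 2.6.0a, HTSeq 0.9.1 and mm10). Whether the counting used strand, and its annotation release, is not given in the sources used here. Runs were summed per library and rows that name no gene (20.1 to 23.2% of reads in these libraries) were left out. Gene positions are from GENCODE M21 (GRCm38).

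Genes with at least 1 CPM in 3 of the 7 libraries were tested with the quasi-likelihood test of edgeR 4.0.16 in R 4.3.3 (TMM factors, adjusted threshold 0.05), with groups from sample titles. DESeq2 1.42.0 and the settings in the closing section were alternatives, of which the unfiltered fit without LH replicate 2 and the filter over all 62 libraries were added after the data were seen.

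Named genes were the 10 with the smallest P in each direction at a mean of at least 10 CPM, the 3 in each direction below it, the member with the smallest P in each of 28 lists, since none passed, and Per2, Arntl, Cry1, Nr1d1, Nr1d2, Dbp, Bhlhe41 and Txnip. The other genes named were chosen after their values were seen. The members and lists were chosen with earlier results of these data known.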

Additional observations from a re-analysis of the deposited data

Results flagged for a closer look

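For 5 of the named genes, 1 of the 4 LH libraries lay far from the other 3 by Dixon's test at 95%, which chance alone passes in about 1 of 20 groups. The highest LH library of Hars was replicate 1, at 28.7 CPM. The lowest of Ipo11 was replicate 4, at 11.5 CPM. The highest of Hsph1 was replicate 2, at 484 CPM, and the lowest of Rplp0 was also replicate 2, at 794 CPM. The highest of Per2 was replicate 1, at 12.5 CPM.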

How the results depend on the processing

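The count of 0 genes past adjustment in edgeR (559 at an unadjusted 0.05) also came out under library totals, upper quartile factors, a filter of 5 CPM, the first or second sequencing run alone, thinning to equal depth, all 62 libraries in the fit, the filter over all libraries, the replicate block, each left-out library and DESeq2. It was 46 with no gene filter, 3 with no filter and without LH replicate 2, 9 with LH replicates 3 and 4 alone and 1846 with the single library that the read summary names LH of collection 5 (titled HL of collection 6), whose spread is assumed to be that of HH, so that this count compares 1 library with HH and not the conditions; the cause was not tested. With that library 17 of 61 named genes changed sign, among them Cdkn2a (-0.40), Elovl6 (0.83), B2m (-0.28) and Dbp (-0.71), and among the 20 leading genes 3 did, Arih2 (-0.19), Morf4l2 (0.12) and Bod1l (0.030). At an unadjusted 0.01, where the reported test had 42 genes higher and 40 lower, counts higher and lower were 169 and 109 with no filter, 88 and 116 with no filter and without LH replicate 2, 107 and 160 with LH replicates 3 and 4, 74 and 65 with replicates 1 and 2, 69 and 79 with the 3 libraries named HL of collection 5, 1025 and 940 with the 1 named LH, and 16 and 8 with all libraries in the fit. Those higher were 21 with library totals, 18 in the second run and 26 with the replicate block, whose lower count was 29. Leaving out 1 library gave 20 to 118 higher and 14 to 104 lower, the most without LH replicate 1 (118 and 104) and the fewest without an HH replicate. Same-numbered LH and HH replicates (1, 2 and 3) had correlations of deviations of -0.045, -0.12 and -0.10, and the labels give no shared culture. The read summary gives LH replicates 1 to 4 the numbers 3, 4, 1 and 2, so these values cannot exclude a pairing. The reported test used none. Between the pairs of LH libraries DESeq2 called 2 genes where edgeR called 0. Of the 61 named genes' values in the 22 other alternatives, 13 of 1336 changed sign, in 6 genes. Most of these alternatives reused the same 7 libraries. With 4 and 3 libraries and 3687321 counts in the shallowest, the intervals of most rare transcripts did not exclude a 2-fold difference.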
